A study of Mus musculus with 35 samples.

Results

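The genes described here make nucleotides and supply the one-carbon units that this synthesis uses: 34 genes chosen by pathway, out of 19938 genes that the array values could name. They comprise 6 pyrimidine genes, 6 genes of purine synthesis up to inosine monophosphate (IMP), 4 genes of the AMP and GMP branches, 6 of phosphoribosyl pyrophosphate (PRPP) supply and purine salvage, 2 nucleoside diphosphate kinases, 5 deoxynucleotide genes and 5 folate enzymes. A total of 33 were measured, because Impdh2 had no transcript cluster with a single gene symbol, and all 33 passed the filter on low values in every comparison.

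RNA of type 1 conventional dendritic cells (cDC1) sorted from mouse spleen was hybridised to 35 Affymetrix arrays, one library each. At steady state, set 1 held 5 heterozygous (MyclGFP/+) and 4 Mycl-deficient (MyclGFP/GFP, here Mycl KO) libraries, and set 2 held 5 wild-type (Mycl+/+) and 5 MyclGFP/GFP libraries. Set 3 held 5 Mycl+/+ and 5 MyclGFP/GFP libraries of mice injected with 100 µg of poly IC, a double-stranded RNA analogue that sets off interferon production, 5 h before death. The Mxd1 set held 3 Mxd1+/+ and 3 Mxd1-/- libraries of mice given the same dose 18 h before death. The labels name no Cre or cell type that would restrict the Mycl or Mxd1 alleles, and set 1 alone has a control that lacks 1 Mycl copy. The labels call the libraries of a group biological replicates without saying that each is another mouse, so p-values measure the spread between these libraries.

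Pyrimidine rings are built from glutamine, bicarbonate and aspartate and are joined to PRPP late, whereas purine rings are assembled step by step on PRPP and end in IMP, the branch point to AMP and GMP. Folate enzymes of the cytosol and mitochondrion pass one-carbon units to purine and thymidylate synthesis. Many genes of these pathways are known targets of MYC proteins, of which Mycl is the family member typical of dendritic cells, and Mxd1 competes with MYC proteins for their partner MAX and represses transcription.

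Levels below are log2 values as deposited, and differences are Mycl KO (or labelled Mxd1 KO) minus control on that log2 scale, with the standard error (SE) of the limma fit. A member passed the test at a Benjamini-Hochberg adjusted p under 0.05 over all genes tested. The sets differ in array median (set 1, 6.50 to 6.57; set 2, 5.55 to 5.60; set 3, 5.47 to 5.53; Mxd1 set, 5.95 to 6.01) and were handled as normalized apart, so levels of different sets are not compared. No spike-in is used, so a difference shows change against the rest of the transcripts measured, and in bulk RNA fewer cells of a type and less RNA per cell cannot be told apart.

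Mycl transcript checked the labels. It was 6.78 to 7.11 in KO against 9.65 to 9.93 in heterozygous libraries of set 1, and 5.51 to 5.80 in KO against 9.55 to 9.79 in wild-type libraries of set 2. In set 3 the KO libraries read 5.84, 5.99, 8.87, 5.52 and 6.14 against 9.03 to 9.81 in wild type, so KO library 3 lay near the control level. Wild-type libraries 1 and 4 of set 3 also stood apart: the mean of 17 interferon response genes, a list added after these libraries were noticed, was 7.20 and 8.44 in them, against 10.41 to 10.70 in the other wild-type and 10.46 to 10.88 in the KO libraries. Mxd1 was 11.03, 10.81 and 10.63 in the wild-type and 10.64, 10.49 and 10.41 in the labelled Mxd1 KO libraries, a difference of -0.31 ± 0.11 (limma adjusted p = 0.26). The groups overlapped, and those libraries are therefore called labelled Mxd1 KO. All 14 cDC1 markers were at or above the filter level in each of the 8 groups. By group, so were 5 or 6 of 8 markers of type 2 dendritic cells, 6 of 6 of plasmacytoid dendritic cells, 5 or 6 of 8 of monocytes and macrophages, 2 to 4 of 6 of neutrophils, 3 of 5 of B cells, 3 to 6 of 8 of T and NK cells and 0 or 1 of 2 of erythroid cells.

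At steady state 3 members fell in Mycl KO cells when both sets were fitted together with the set as a block: Atic, Uck2 and Adsl. Atic and Adsl act late in IMP synthesis, and Uck2 is a salvage kinase that phosphorylates uridine and cytidine. That is 3 of 33 members against 4.43% of the 14639 genes tested. Of the members 26 lay below 0, with a median of -0.05, against 46% below 0 and a median of 0.01 over all genes tested. No member passed the test upward, and none lies on the chromosome that holds Mycl. In the same fit 12 of 14 cDC1 markers lay above 0 and 5 rose (median 0.14). Of 6 tested markers each, 1 of type 2 dendritic cells fell (median 0.15), 1 of plasmacytoid dendritic cells rose (median 0.14) and 1 of monocytes and macrophages rose (median 0.21), with all 6 of the last at an unadjusted p under 0.05. Of 3 B cell markers 1 fell (median 0.08), and of 21 cycling markers 12 lay below 0 with 0 past the test or at an unadjusted p under 0.05 (limma). The part of these markers in the members' values was not tested.

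**Figure D1:**
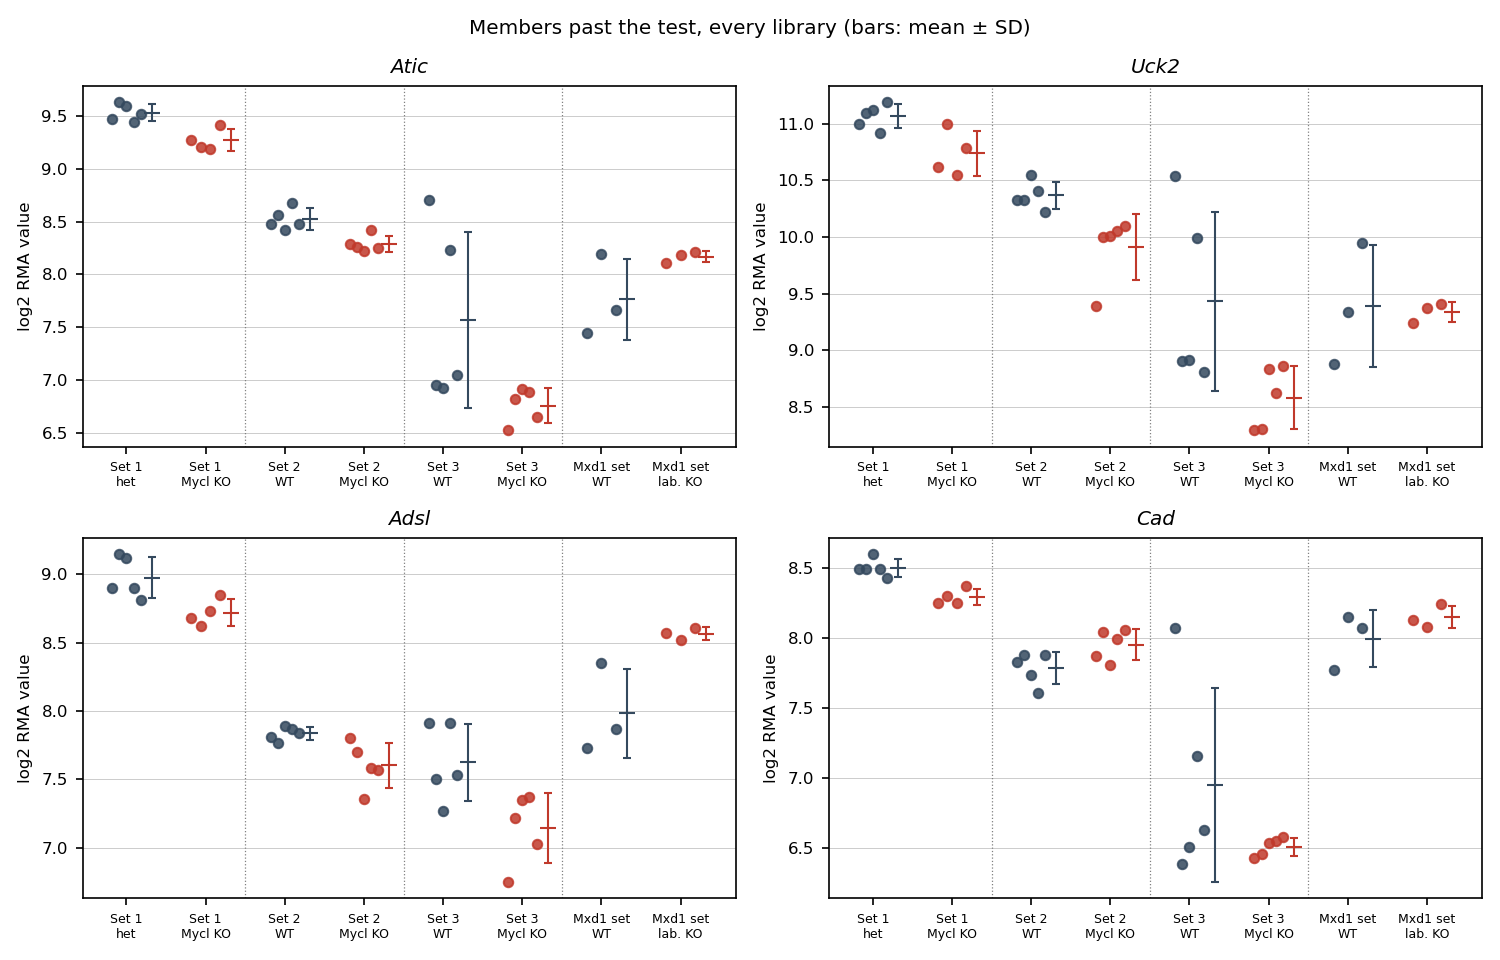
Log2 values of Atic, Uck2, Adsl and Cad in each library (points) of the 8 groups, with the group mean and SD as bars and dotted lines between sets, whose levels are not compared. The Mycl KO means (red) lay lower in both steady-state sets for Atic, Uck2 and Adsl, that of Cad changed sides between set 1 and set 2, and wild-type libraries 1 and 4 of set 3 stood above all other libraries of that set for Atic and Uck2.

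The promoters of these 3 genes are shown because MYC proteins with MAX bind the E-box CACGTG, which is its own reverse complement. Each window, from RefSeq on GRCm38.p6, runs from 250 bases before to 50 after the start site on the gene's strand, in lower case with CACGTG in capitals. Those of Uck2 and Adsl were added to the rule that selects printed promoters, after the values were seen, to set windows without the motif beside one with it.
Atic, chr1:71556906-71557205, + strand: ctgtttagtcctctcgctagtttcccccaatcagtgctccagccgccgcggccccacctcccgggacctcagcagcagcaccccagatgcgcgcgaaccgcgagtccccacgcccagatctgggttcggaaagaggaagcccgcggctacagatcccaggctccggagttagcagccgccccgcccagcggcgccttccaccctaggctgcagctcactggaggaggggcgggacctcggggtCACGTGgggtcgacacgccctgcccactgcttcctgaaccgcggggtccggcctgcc
Uck2, chr1:167285078-167285377, - strand: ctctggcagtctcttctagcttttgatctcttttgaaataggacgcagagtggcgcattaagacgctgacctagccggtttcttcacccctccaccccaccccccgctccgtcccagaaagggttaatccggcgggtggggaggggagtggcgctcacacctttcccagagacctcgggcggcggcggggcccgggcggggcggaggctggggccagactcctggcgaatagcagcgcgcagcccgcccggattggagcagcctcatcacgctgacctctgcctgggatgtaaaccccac
Adsl, chr15:80948240-80948539, + strand: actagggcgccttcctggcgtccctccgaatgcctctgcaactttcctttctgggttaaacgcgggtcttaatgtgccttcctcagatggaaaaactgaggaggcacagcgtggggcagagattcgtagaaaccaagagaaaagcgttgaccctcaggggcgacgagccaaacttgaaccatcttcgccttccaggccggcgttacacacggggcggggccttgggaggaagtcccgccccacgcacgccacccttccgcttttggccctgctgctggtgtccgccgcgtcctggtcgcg
The E-box of Atic begins at position -7 from the start site, and the windows of Uck2 and Adsl hold no CACGTG. Of the 32 members with a RefSeq window, 5 held the E-box (15.6%): Atic, Impdh2, Nme1, Paics and Tyms. Over all genes of the table the share was 8.09%. The related form CACGCG, counted with its reverse complement CGCGTG, was in 3 members (9.38%; Prpsap1, Shmt1 and Shmt2) against 10.5% of all genes. These matches describe the letters of the windows and are not evidence of binding.

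Atic, the bifunctional enzyme of the last steps to IMP, read 9.47, 9.63, 9.60, 9.44 and 9.52 in heterozygous and 9.27, 9.21, 9.19 and 9.42 in KO libraries of set 1. In set 2 it read 8.48, 8.56, 8.42, 8.68 and 8.48 in wild-type and 8.29, 8.26, 8.22, 8.42 and 8.25 in KO libraries. The groups of set 1 did not overlap, and those of set 2 met at 8.42. Over both sets Atic fell by 0.25 ± 0.04 (limma adjusted p = 0.00166), which is 1.19-fold.

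Uck2 read 11.00, 11.10, 11.12, 10.92 and 11.19 in heterozygous and 10.62, 11.00, 10.55 and 10.79 in KO libraries of set 1. In set 2 it read 10.33, 10.33, 10.55, 10.41 and 10.22 in wild-type and 9.39, 10.00, 10.01, 10.05 and 10.10 in KO libraries. KO library 2 of set 1 lay within the heterozygous range, and in set 2 all KO libraries lay below all wild-type ones, KO library 1 farthest. Over both sets Uck2 fell by 0.40 ± 0.08 (limma adjusted p = 0.00512), or 1.32-fold. A second transcript cluster of Uck2 had differences of -0.28 in set 1 and -0.49 in set 2. Its paralog Uck1, which carries out the same reaction, had -0.17 ± 0.09 and -0.05 ± 0.07 in these sets and did not pass.

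Adsl, which acts both before IMP and on the way from IMP to AMP, read 8.90, 9.15, 9.12, 8.90 and 8.81 in heterozygous and 8.68, 8.62, 8.73 and 8.85 in KO libraries of set 1. In set 2 it read 7.81, 7.77, 7.89, 7.87 and 7.84 in wild-type and 7.80, 7.70, 7.36, 7.58 and 7.57 in KO libraries. Each KO group had 1 library inside the control range. Over both sets Adsl fell by 0.24 ± 0.05 (limma adjusted p = 0.0108). These 3 were called in each of the 19 fits that left out 1 library, and 0 members were called at steady state with all 8 groups in 1 fit.

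The next members by p were Prpsap2, a PRPP synthetase-associated protein (-0.12 ± 0.04, adjusted p = 0.101), and Paics, which acts just before Adsl (-0.13 ± 0.05, adjusted p = 0.129). Prpsap2 read 8.77 to 8.94 in heterozygous and 8.53 to 8.77 in KO libraries of set 1, and 7.77 to 7.94 and 7.70 to 7.84 in those of set 2. Paics read 9.07 to 9.24 and 8.90 to 9.13 in set 1, and 7.89 to 8.17 and 7.74 to 7.98 in set 2. The groups of both members met or overlapped in each set. Upstream in the same branch Ppat, Gart and Pfas, the entry enzyme and those that follow, had steady-state differences of 0.05 ± 0.05, 0.01 ± 0.06 and -0.02 ± 0.05.

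In set 1, Mycl KO against heterozygous cells, the members lay low across every branch without any passing the test. A total of 32 of 33 lay below 0 (all genes, 48.7%), and the median was -0.16 (all genes, 0.00). The exception was Mthfd2 (0.02 ± 0.07), the mitochondrial folate dehydrogenase. Limma called 0 members, against 0.0214% of 14023 genes, while 14 members (42.4%) and 14.2% of all genes had an unadjusted p under 0.05, all 14 lower. With array weights 1 member, Cad, was called. The share of all genes called with array weights is not given here, and the 0.0214% belongs to the fit without them. Of the cDC1 markers 13 of 14 lay above 0 here (median 0.12), and 19 of 21 cycling markers lay below 0 (median -0.16), with summed levels of 177.6 to 183.1 in KO and 181.3 to 186.9 in heterozygous libraries; their part in the members' values was not tested.

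By smallest p the members of set 1 were Cad, Atic, Mthfd1l, Shmt2 and Uck2. Cad, the enzyme that starts pyrimidine synthesis, read 8.49, 8.49, 8.60, 8.49 and 8.43 in heterozygous and 8.25, 8.30, 8.25 and 8.37 in KO libraries (-0.21 ± 0.05, adjusted p = 0.149). Shmt2, the mitochondrial serine hydroxymethyltransferase that feeds one-carbon units from serine, read 9.29, 9.37, 9.55, 9.30 and 9.45 in heterozygous and 9.23, 9.19, 9.15 and 9.16 in KO libraries (-0.21 ± 0.06, adjusted p = 0.195). The groups did not overlap for either gene. Mthfd1l, the mitochondrial enzyme that releases formate, read 7.94, 8.10, 8.13, 8.09 and 7.99 in heterozygous and 7.74, 7.41, 7.66 and 7.97 in KO libraries (-0.35 ± 0.09, adjusted p = 0.185), and KO library 4 lay within the heterozygous range. Atic was at -0.26 ± 0.06 (adjusted p = 0.15) and Uck2 at -0.33 ± 0.09 (adjusted p = 0.195).

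The groups of set 1 did not overlap for 4 members, all lower in KO (Cad, Atic, Shmt2 and Prps2, a PRPP synthetase), against 2.72% of genes in that direction. In the opposite direction it was 0 members and 1.74% of genes. All 6 pyrimidine, 6 purine and 6 PRPP and salvage members and all 5 deoxynucleotide members lay below 0, with branch medians of -0.18, -0.15, -0.13 and -0.19. The folate median was -0.21, and the cytosolic enzyme Shmt1 lay nearest 0 below it (-0.02 ± 0.06). Members also near 0 were Impdh1 (-0.00 ± 0.04), which commits IMP to GMP, the salvage enzyme Hprt (-0.01 ± 0.19) and the kinase Nme2 (-0.03 ± 0.08). KO library 2 had the lowest mean over the members (8.40, others 8.53 to 8.78), and without it the median was -0.10 with 27 members below 0. By library the member mean was 8.61, 8.78, 8.76, 8.63 and 8.61 in heterozygous and 8.57, 8.40, 8.53 and 8.62 in KO libraries. KO library 4 thus lay within the heterozygous range. The cycling marker mean was 8.63, 8.90, 8.89, 8.70 and 8.67 in heterozygous and 8.67, 8.46, 8.46 and 8.72 in KO libraries. In both lists heterozygous libraries 2 and 3 were highest and KO libraries 2 and 3 lowest. In this set 9 members in the heterozygous and 2 in the KO group had exactly equal values in 2 or more libraries, as did 31.9% and 27.1% of all genes, against at most 0.436% of genes in the other groups.

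**Figure D2:**
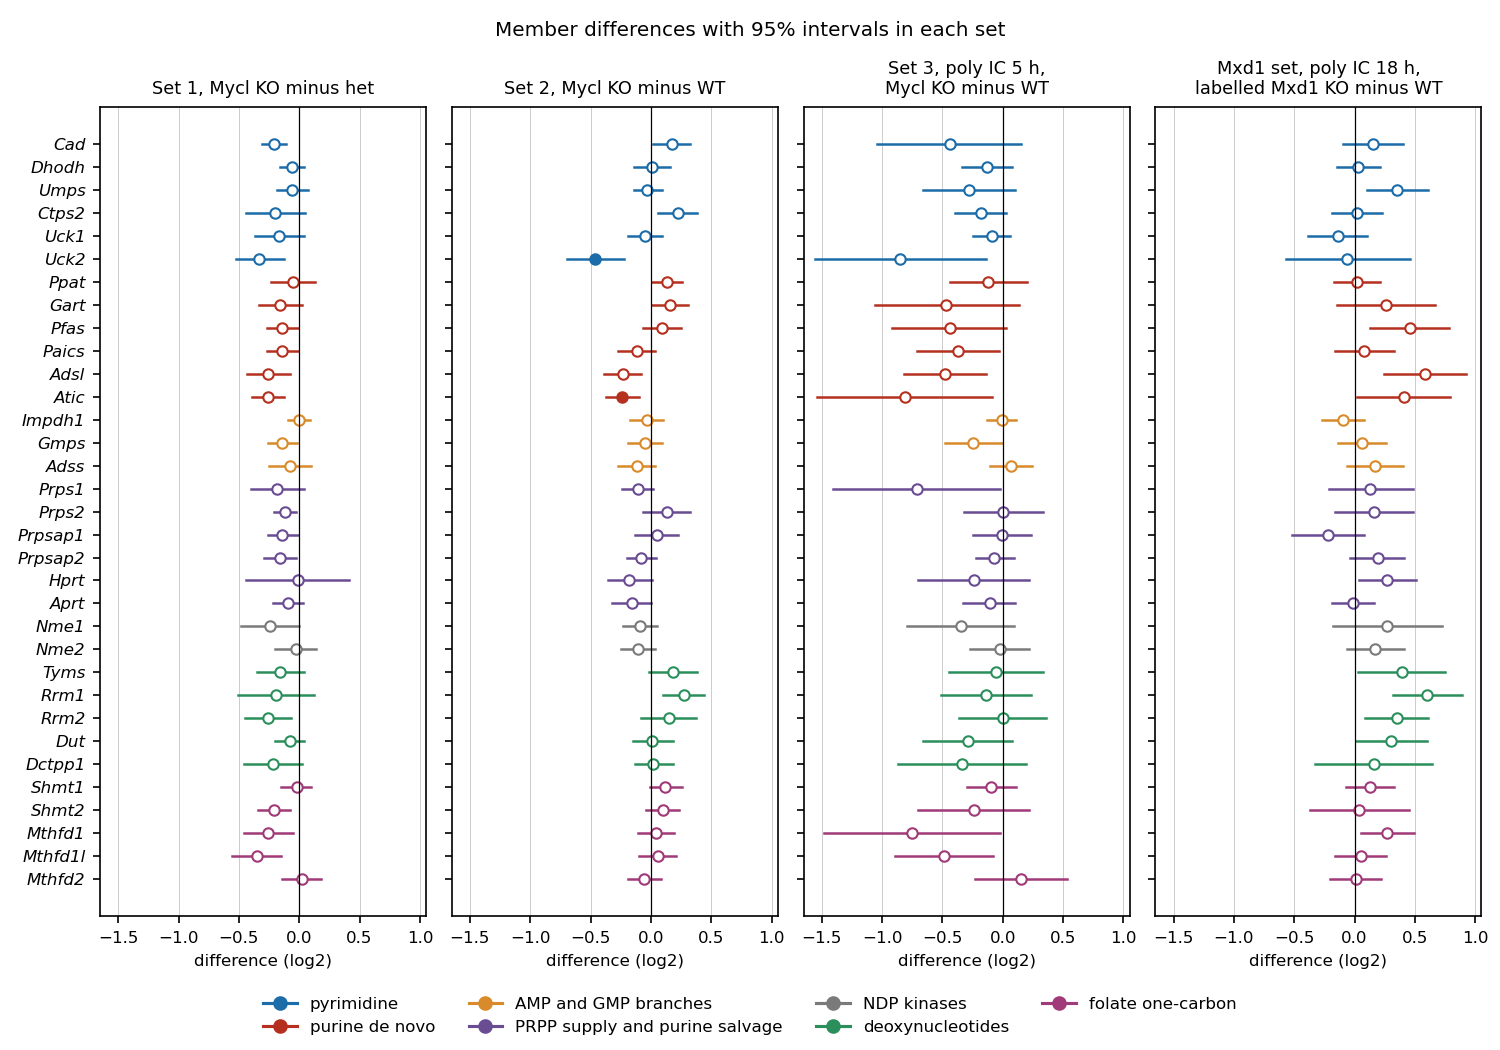
Differences (log2, points) with 95% intervals of the limma fit for the 33 measured members, by branch (colours), in the 4 comparisons; filled points passed the test. In set 1 points lay below 0 for 32 members, in set 2 for 16, in set 3 for 30, and in the Mxd1 set for 5; the filled points are Uck2 and Atic in set 2.

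In set 2, Mycl KO against wild-type cells, the members split instead of lying to one side. Uck2 fell by 0.46 ± 0.11 (limma adjusted p = 0.0269) and Atic by 0.24 ± 0.06 (adjusted p = 0.035), which is 2 of 33 members against 6.14% of 14012 genes. No member rose. Below 0 lay 16 of 33 (all genes, 47.1%), and the median was 0.01, the same as over all genes. Unadjusted p was under 0.05 for 3 members lower and 5 higher, together 24.2% of members against 21.2% of all genes. Among all genes 1200 were lower and 1775 higher. Neither member was called without wild-type library 1, 2 or 4; Uck2 alone was called without KO library 2, 3 or 5, and Atic alone without wild-type library 3. Without KO library 1 the calls were Uck2, Adsl and Rrm1, and without KO library 4 they were Uck2, Atic and Rrm1, with Rrm1 higher.

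The members next by p did not pass and stood on both sides. Rrm1, the large subunit of ribonucleotide reductase, read 6.64, 6.49, 6.63, 6.50 and 6.66 in wild-type and 6.72, 6.95, 7.03, 6.60 and 6.97 in KO libraries (0.27 ± 0.08, adjusted p = 0.0587). Adsl was at -0.23 ± 0.07 (adjusted p = 0.0715). Ctps2, one of the enzymes that make CTP, read 6.60, 6.52, 6.22, 6.65 and 6.65 in wild-type and 6.75, 6.81, 6.75, 6.71 and 6.73 in KO libraries (0.22 ± 0.08, adjusted p = 0.105). KO library 4 kept the Rrm1 groups from separating, and Ctps2 did not overlap. Non-overlap was seen for 1 member lower (Uck2; 3% of genes) and 1 higher (Ctps2; 3.74% of genes).

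By branch, the 5 deoxynucleotide members lay above 0 in set 2: Rrm1, its partner subunit Rrm2 (0.15 ± 0.11), thymidylate synthase Tyms (0.18 ± 0.09), and the dUTPase Dut and the dCTP pyrophosphatase Dctpp1 (0.01 ± 0.08 and 0.02 ± 0.07). Of 21 cycling markers 17 lay above 0 as well and 1 passed the test, with summed levels of 157.3 to 166.5 in KO and 158.9 to 163.3 in wild-type libraries. Of 14 cDC1 markers 5 rose and 1 fell (median 0.11), with summed levels of 151.7 to 153.7 in KO and 150.6 to 152.4 in wild-type libraries. Of 6 tested markers each, 2 rose and 1 fell among those of type 2 dendritic cells (median 0.24; summed levels 45.85 to 49.43 in KO, 45.61 to 46.76 in wild type), of plasmacytoid dendritic cells (0.22; 42.14 to 43.95, 41.92 to 42.5) and of monocytes and macrophages (0.27; 50.92 to 52.88, 49.89 to 51.82). These summed levels are over all measured markers, tested or not: 8, 6 and 8 by list. Among 15 tested interferon response genes 3 rose and 0 fell, with 8 below 0 and a median of -0.01, and their part was not tested. Of 3 B cell markers 1 fell. The part of these markers in the members' values was not tested. The 3 AMP and GMP members and both kinases Nme1 and Nme2 lay below 0, between -0.12 and -0.03. In PRPP supply and salvage, Hprt, Aprt, which salvages adenine, and Prps1 had -0.18 ± 0.09, -0.16 ± 0.08 and -0.11 ± 0.06, while Prps2 and Prpsap1 had 0.13 ± 0.09 and 0.05 ± 0.08. The pyrimidine enzymes Dhodh and Umps, which follow Cad, had 0.01 ± 0.07 and -0.03 ± 0.05. Myc, the family member best known for driving these genes, rose by 1.18 ± 0.11 in the KO cells of set 2 (limma adjusted p = 7.85e-05). It had -0.01 ± 0.13 in set 1, and over both sets it rose by 0.62 ± 0.15 (adjusted p = 0.0219). In set 3 Myc was at 0.40 ± 0.10 (adjusted p = 0.229), with 6.46 to 6.77 in wild-type and 6.82 to 7.28 in KO libraries. In the Mxd1 set it was at -0.25 ± 0.32. The part of Myc in the members' values was not tested.

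The Mycl KO effect of set 2 minus that of set 1 was tested directly, and Cad differed by 0.38 ± 0.09 (limma adjusted p = 0.0399), 1 of 33 members against 1.01% of 14639 genes. Cad read 7.83, 7.88, 7.74, 7.61 and 7.88 in wild-type and 7.87, 8.04, 7.81, 7.99 and 8.06 in KO libraries of set 2, where the difference was 0.17 ± 0.07 (adjusted p = 0.177) and the groups overlapped. It thus lay lower than control in set 1 and higher in set 2. The call was lost without single libraries: 0 members were called when any of 12 of the 19 libraries was left out (set 1 KO 1, 2 or 3, heterozygous 2, 3 or 4; set 2 KO 2, 4 or 5, wild-type 1, 3 or 4) and with quantile normalization of all arrays. Without set 1 KO library 4 or set 2 KO library 1 Mthfd1l was called beside Cad.

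The folate members Shmt2 (0.31 ± 0.09, adjusted p = 0.0791) and Mthfd1l (0.41 ± 0.12, adjusted p = 0.0972) followed, then Ctps2 (0.42 ± 0.14, adjusted p = 0.128) and Gart (0.31 ± 0.11, adjusted p = 0.155). In set 2 Shmt2 ran from 8.23 to 8.44 in wild-type and 8.35 to 8.58 in KO libraries, and Mthfd1l from 6.80 to 7.08 and 6.79 to 7.13. Ctps2 ran from 7.56 to 8.06 in heterozygous and 7.28 to 7.74 in KO libraries of set 1. Gart, which carries out several purine steps, ran from 9.19 to 9.38 and 8.87 to 9.28 in set 1 and from 8.31 to 8.56 and 8.42 to 8.78 in set 2. The groups of all 4 overlapped in set 2 except Ctps2, and in set 1 except Shmt2. Above 0 lay 26 of 33 members, with a median of 0.12 (all genes, 0.01). The effects of Atic (0.02 ± 0.09), Adsl (0.03 ± 0.11) and Uck2 (-0.13 ± 0.16) in set 2 minus set 1 had 95% intervals of -0.16 to 0.20, -0.20 to 0.25 and -0.46 to 0.19. The controls of the sets differ in Mycl copy number, which cannot be told apart from any other difference between the sets.

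**Figure D3:**
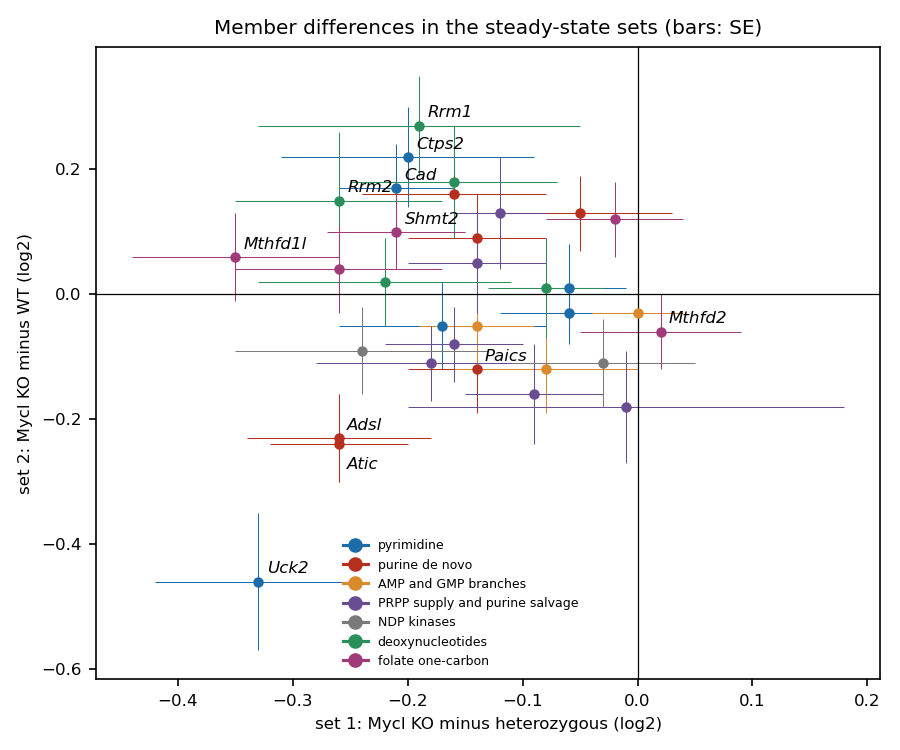
Difference of each of the 33 members in set 1 (horizontal, log2) against set 2 (vertical, log2), with SE bars and colours by branch. Atic, Adsl and Uck2 lie low in both sets, and Cad, Ctps2, Rrm1 and Rrm2 lie low in set 1 and high in set 2.

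The sets had no library in common, and the same sign in both was seen for 45.5% of members and 51.6% of all genes tested in both, with 15 members below 0 in each set. Across the 33 members Pearson's r between the 2 sets was 0.07, and over all genes it was 0.20; members are not independent points and share libraries within each set.

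Under poly IC for 5 h (set 3), Mycl KO against wild-type cells, limma called 0 members and 0% of 14033 genes. Unadjusted p was under 0.05 for 8 members, all lower, and for 14.2% of all genes. Of the members 30 of 33 lay below 0 (all genes, 50.3%) with a median of -0.24 (all genes, -0.00). Without wild-type library 1 the median was -0.09. Without wild-type libraries 1 and 4 it was -0.01 with 17 members below 0, and without them and KO library 3 it was -0.03 with 24 below 0, with 0 members called each time. Of 14 cDC1 markers 11 lay below 0 (median -0.18), and of 21 cycling markers 18 did (median -0.09); limma called 0 of them, with 3 and 0 at an unadjusted p under 0.05. Their mean levels were also highest in wild-type libraries 1 and 4, at 10.71 and 10.81 for cDC1 markers (10.15 to 10.32 in the other 8 libraries) and 8.28 and 8.15 for cycling markers (7.65 to 8.09). Of 6 plasmacytoid dendritic cell markers 5 lay above 0 (median 0.33), with a mean level of 6.88 in wild-type library 1 against 7.36 to 7.64 in the others; the part of these markers was not tested. With all 8 groups in 1 fit 9 members were called, all libraries included. The share of all genes called in that fit is not given here, and the 0% above belongs to the fit of set 3 alone.

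Atic read 8.70, 6.95, 6.92, 8.23 and 7.05 in wild-type and 6.52, 6.82, 6.91, 6.88 and 6.65 in KO libraries (-0.81 ± 0.33, adjusted p = 0.321). Uck2 read 10.54, 8.90, 8.91, 9.99 and 8.81 in wild-type and 8.29, 8.30, 8.83, 8.62 and 8.86 in KO libraries (-0.85 ± 0.32, adjusted p = 0.306). Wild-type libraries 1 and 4 were the highest for both genes; Atic was the only member whose groups did not overlap (1.65% of genes in that direction), with 6.92 in wild-type library 3 next to 6.91 in KO library 3. Adsl read 7.91, 7.50, 7.27, 7.91 and 7.53 in wild-type and 6.75, 7.22, 7.35, 7.37 and 7.03 in KO libraries (-0.48 ± 0.15, adjusted p = 0.292). Without wild-type libraries 1 and 4 the differences of Atic, Uck2 and Adsl were -0.22, -0.29 and -0.29 (adjusted p = 0.519, 0.528 and 0.533).

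Mthfd1l read 7.28, 6.34, 6.26, 7.05 and 6.53 in wild-type and 6.25, 6.10, 6.41, 6.14 and 6.13 in KO libraries (-0.49 ± 0.18, adjusted p = 0.306). Paics read 8.19, 7.61, 7.55, 8.09 and 7.33 in wild-type and 7.40, 7.36, 7.53, 7.38 and 7.25 in KO libraries (-0.37 ± 0.15, adjusted p = 0.33). For both, wild-type libraries 1 and 4 were again above all others, and without them the differences were -0.17 and -0.11. Over the 33 members the mean level was 7.81, 7.14, 7.11, 7.64 and 7.16 in the wild-type and 7.01, 7.05, 7.28, 7.16 and 7.05 in the KO libraries. The 2 wild-type libraries with the lowest interferon response genes thus had the highest members. Mthfd2 went the other way in 1 of them: it read 7.69 in wild-type library 1, against 8.62 to 8.69 in the other 4 and 8.54 to 8.68 in the KO libraries. Prpsap1, which binds PRPP synthetase, was also lowest in wild-type libraries 1 and 4 among the wild type (8.16 and 8.12, others 8.46 to 8.62).

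**Figure D4:**
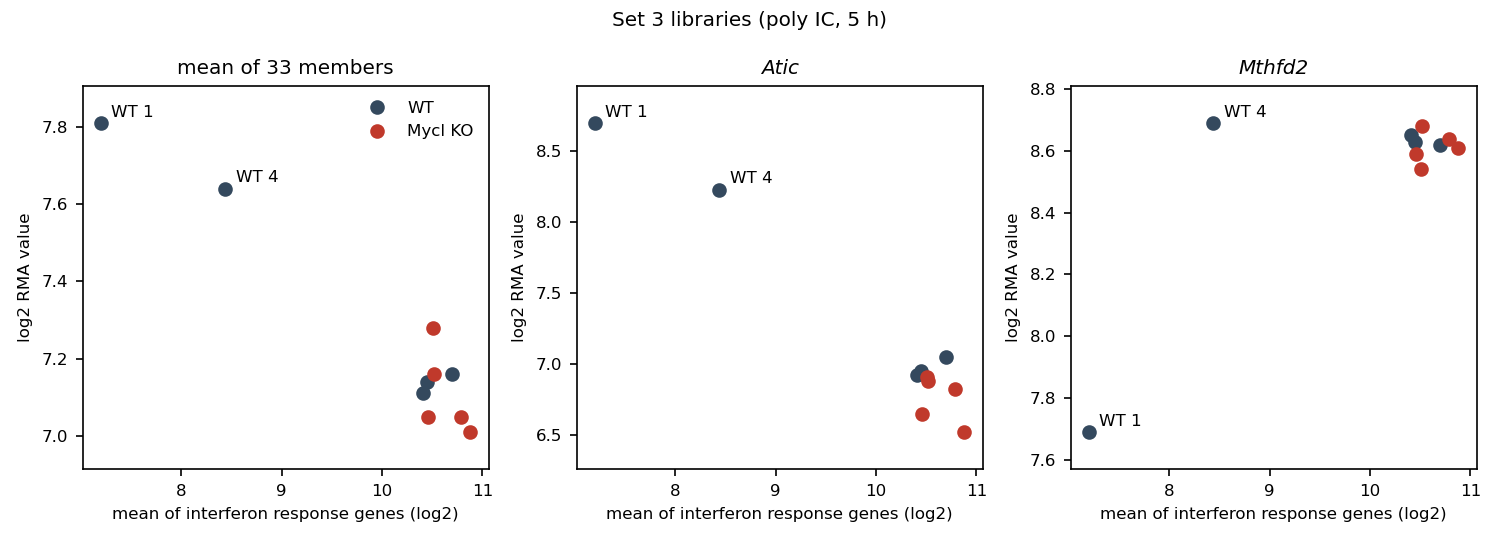
Each point is 1 library of set 3 (wild type dark, Mycl KO red), with the mean of 17 interferon response genes (log2, horizontal) against the mean of the 33 members, Atic and Mthfd2 (log2, vertical). Wild-type libraries 1 and 4 lie apart at 7.20 and 8.44 on the horizontal axis, high for the members and Atic, and library 1 is low for Mthfd2.

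The largest SDs within the wild-type group of set 3 were those of Atic (0.84), Mthfd1, the cytosolic trifunctional folate enzyme (0.83), Uck2 (0.79), Prps1 (0.74), Cad (0.69) and Gart (0.67), and among the KO libraries these members had SDs of 0.06 to 0.35. Impdh1 (0.06), Adss, the entry enzyme to AMP (0.10), and Uck1 and Prpsap2 (0.11 each) varied least in the wild-type group. The deoxynucleotide members were between these, with differences of -0.34 ± 0.24 for Dctpp1, -0.29 ± 0.17 for Dut, -0.14 ± 0.17 for Rrm1, -0.06 ± 0.18 for Tyms and -0.00 ± 0.16 for Rrm2. Gmps, which makes GMP, was at -0.25 ± 0.11.

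The KO effect of set 3 minus that of set 2 uses the set 2 libraries again. Poly IC in this contrast cannot be told apart from any other difference between the 2 sets. For it limma called 0 members, against 0.0205% of 14665 genes. At an unadjusted p under 0.05 were 7 members (21.2%), all lower, and 13% of all genes, 1150 of these lower and 752 higher. The median was -0.25 (all genes, -0.01), with 27 members below 0. It was -0.12 without wild-type library 1 of set 3 and 0.01 without wild-type libraries 1 and 4. By p the members were Ctps2 (-0.40 ± 0.13, adjusted p = 0.231), Mthfd1l (-0.54 ± 0.21, 0.291), Pfas (-0.53 ± 0.24, 0.354), Mthfd1 (-0.79 ± 0.35, 0.354) and Gart (-0.62 ± 0.29, 0.379), and without those 2 libraries they were at -0.29, -0.23, -0.17, -0.21 and -0.13. Ctps2 ran from 6.12 to 6.65 in wild-type and 6.02 to 6.16 in KO libraries of set 3. Pfas, a purine enzyme that adds an amide nitrogen, ran from 5.71 to 6.85 and 5.53 to 6.02, and Mthfd1 from 6.27 to 8.19 and 6.22 to 6.77.

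In the Mxd1 set, under poly IC for 18 h, the members lay mostly higher in the libraries labelled Mxd1 KO, with none past the test. Above 0 lay 28 of 33 (median 0.16), while over all genes 50.6% lay below 0 and the median was -0.00. Limma called 0 members, against 0.071% of 14080 genes, and 10 members had an unadjusted p under 0.05, all higher (30.3%, against 15.9% of all genes). Without wild-type library 1 the median was 0.04 with 12 members below 0. Without wild-type library 2 there were 4 members called, all higher. The share of all genes called without that library is not given here, and the 0.071% belongs to the fit with it.

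Rrm1 read 6.34, 6.66 and 6.56 in wild-type and 6.97, 7.05 and 7.34 in labelled KO libraries (0.60 ± 0.12, limma adjusted p = 0.137). Adsl read 7.73, 8.35 and 7.87 in wild-type and 8.57, 8.52 and 8.61 in labelled KO libraries (0.58 ± 0.15, adjusted p = 0.183). Pfas read 6.74, 7.26 and 6.85 in wild-type and 7.30, 7.36 and 7.56 in labelled KO libraries (0.46 ± 0.14, adjusted p = 0.222). All labelled KO libraries lay above all wild-type ones for these genes, and Rrm1, Adsl and Pfas passed (adjusted p = 0.0446, 0.0273 and 0.0366) without wild-type library 2. Umps, which completes UMP, read 7.37, 7.63 and 7.74 in wild-type and 7.91, 7.84 and 8.05 in labelled KO libraries (0.35 ± 0.11, adjusted p = 0.227). Rrm2 read 6.90, 7.07 and 7.22 in wild-type and 7.28, 7.37 and 7.60 in labelled KO libraries (0.35 ± 0.12, adjusted p = 0.232). Neither overlapped between groups.

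**Figure D5:**
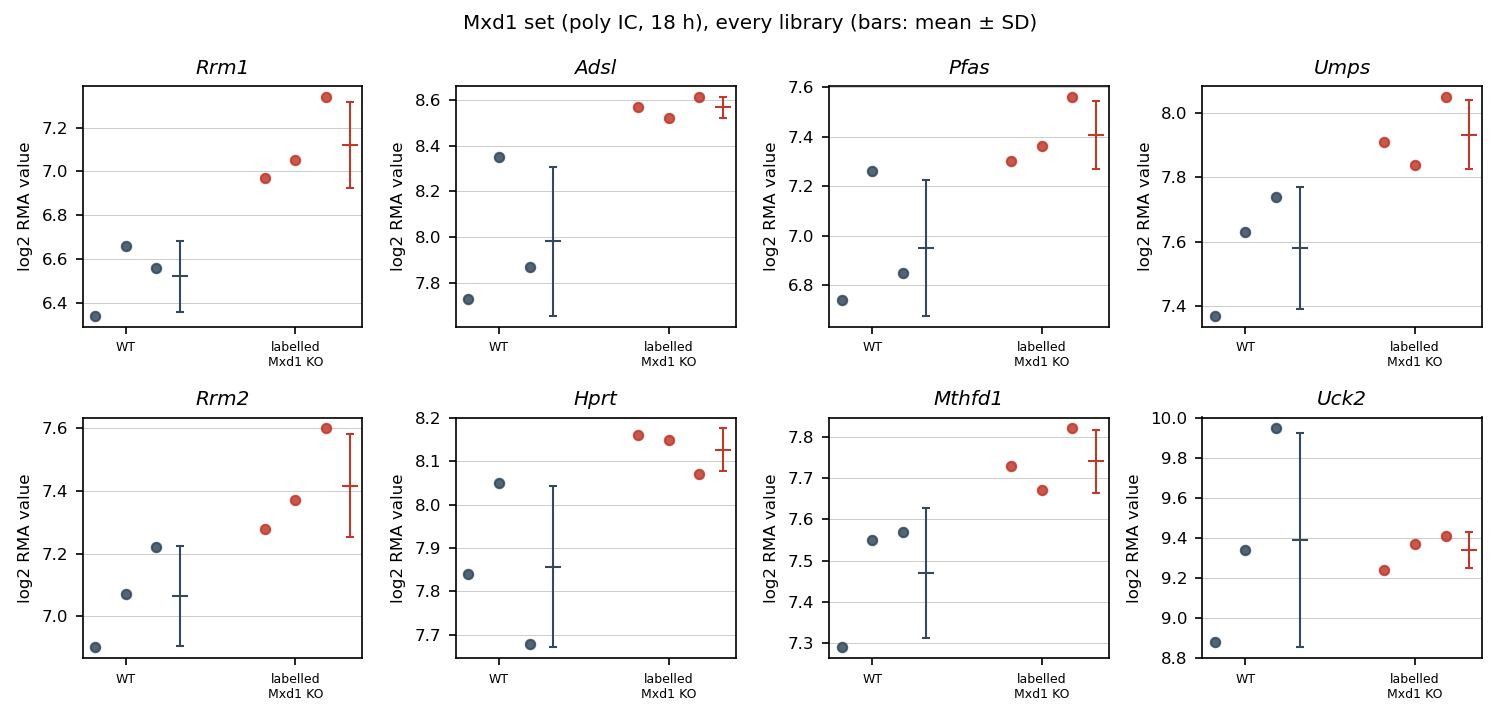
Log2 values of 8 members in each library of the Mxd1 set (points; wild type dark, labelled Mxd1 KO red), with mean and SD as bars. All but Uck2 show every labelled KO library above every wild-type library.

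Non-overlap upward was seen for 7 members (Umps, Pfas, Adsl, Hprt, Rrm1, Rrm2 and Mthfd1; 21.2%, against 11.8% of genes) and downward for 1 (Impdh1, -0.10 ± 0.08; 10.8% of genes). All 5 deoxynucleotide members lay above 0 (median 0.35), with Tyms at 0.39 ± 0.16 and Dut at 0.30 ± 0.13, and so did all 6 purine members (median 0.33), with Atic at 0.41 ± 0.17. The pyrimidine and folate medians were 0.02 and 0.05, and the AMP and GMP median was 0.06. Below 0 lay Uck1 (-0.14 ± 0.11), Uck2 (-0.06 ± 0.23), Impdh1, Prpsap1 (-0.22 ± 0.13) and Aprt (-0.01 ± 0.08). Wild-type library 1 had the lowest mean over the members, 7.59, with 7.84 and 7.87 in the other wild-type and 7.90, 7.93 and 7.98 in the labelled KO libraries. Of 21 cycling markers 20 lay above 0, 19 at an unadjusted p under 0.05 and 0 past the test (median 0.52), with summed levels of 156.4 to 164.4 in wild-type and 168.8 to 174.8 in labelled KO libraries. The 17 interferon response genes had 12 below 0 (median -0.17), with 4 lower and 2 higher at an unadjusted p under 0.05 and 0 past the test. Their mean level was 9.39, 9.21 and 9.07 in wild-type and 9.24, 9.12 and 8.86 in labelled KO libraries, and their part was not tested. Of 14 cDC1 markers 12 lay above 0 (median 0.18), with summed levels of 147.2 to 151.6 in wild-type and 152.1 to 153.1 in labelled KO libraries. Among 5 tested monocyte and macrophage markers 1 fell. The part of these markers in the members' values was not tested.

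Signs in the labelled Mxd1 KO comparison and the Mycl KO comparisons, which share no library, were the same for 18.2% of members with set 1 (all genes, 36.8%), 24.2% with set 3 (33.6%) and 60.6% with set 2 (47.5%). Sets 1 and 3 had the same sign for 93.9% of members (63.5% of all genes), a share that includes wild-type libraries 1 and 4 of set 3. These shares are descriptions without a test.

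Among 66 further genes of nucleotide and folate metabolism, chosen by pathway, 57 were measured and 53 tested. At steady state over both sets 4 of them fell and 1 rose, against 4.43% of 14639 genes called in either direction. Ctps, the paralog of Ctps2 that makes CTP, fell by 0.39 ± 0.05 (limma adjusted p = 0.000199). Adk, which phosphorylates adenosine, fell by 0.22 ± 0.06 (adjusted p = 0.0477), Ampd2, an AMP deaminase, by 0.19 ± 0.05 (0.0464), and Mtfmt, which formylates the mitochondrial initiator tRNA, by 0.22 ± 0.05 (0.0114). Ampd3, another AMP deaminase, rose by 0.19 ± 0.05 (0.0163). Ctps read 7.41, 7.48, 7.56, 7.36 and 7.22 in heterozygous and 6.90, 6.97, 6.88 and 6.98 in KO libraries of set 1, and 6.53, 6.74, 6.39, 6.52 and 6.38 in wild-type and 6.10, 6.31, 6.15, 6.21 and 6.25 in KO libraries of set 2. Its groups overlapped in neither set, while Ctps2 lay on opposite sides in them. Ctps lies on the chromosome that holds Mycl.

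In set 2 alone 2 of the 53 fell and 5 rose, against 6.14% of 14012 genes called in either direction (331 lower and 530 higher). Ctps fell by 0.31 ± 0.07 (adjusted p = 0.0207) and Slc25a33, a mitochondrial carrier of pyrimidine nucleotides that also lies on Mycl's chromosome, fell by 0.88 ± 0.18 (0.0108). The nucleoside transporter Slc29a1 rose by 0.35 ± 0.06 (0.00683), Ampd3 by 0.30 ± 0.06 (0.0105), the dCMP deaminase Dctd by 0.24 ± 0.06 (0.0244) and Nudt1, which hydrolyses oxidised purine nucleotides, by 0.26 ± 0.06 (0.0269). The other one was Cmpk2, a mitochondrial UMP-CMP kinase that interferon induces (0.43 ± 0.11, adjusted p = 0.0307), named outside the rule of 6. In sets 1 and 3 and in the Mxd1 set limma called 0 of the 53, with 11, 9 and 8 at an unadjusted p under 0.05. These are 20.8%, 17% and 15.1%, against 14.2%, 14.2% and 15.9% of all genes. Slc29a1 differed between the effects of sets 2 and 1 by 0.38 ± 0.08 (adjusted p = 0.0338), 1 of the 53 against 1.01% of 14639 genes.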

How the data were processed

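The authors deposited log2 values for 35556 transcript clusters on each of 35 arrays, made with the Affymetrix Expression Console and RMA per the submitters' processing notes. The version of either is not given in the sources used here. RMA corrects background, equalises distributions within the arrays it is run on and summarises probes, so a shift shared by all genes is not visible. Clusters were named by the platform annotation (21789 with 1 symbol, 1621 with several, 12146 not listed), and each gene took the cluster with the highest mean. Sets were treated as normalized apart, since their array medians differ. Genes at or above the 30th percentile of named clusters in as many arrays as the smaller group entered each fit (limma 3.58.1, R 4.3.3; lmFit and eBayes, two-sided, Benjamini-Hochberg over all genes, threshold 0.05; only the groups compared). The fitting script was tested on simulated data.

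Members past the test are named with their values, filled to 5 per comparison by smallest p; of the further pathway genes at most 6 past the test are named per comparison. The members and lists were chosen with earlier results of these data known. Alternatives were another filter, mean of clusters, quantile normalization, array weights, 1 fit of all groups, a replicate block and leaving out libraries. The number of arrays limits precision. Dhodh and Pfas had no promoter entry.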

Additional observations from a re-analysis of the deposited data

Results flagged for a closer look

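In 10 of 198 sets of a member's values in 1 group of 4 or 5 libraries, 1 library lay far from the others by Dixon's criterion; chance gives about 1 in 20. In set 1, heterozygous library 3 read 7.21 for Dhodh (others 7.17), library 2 read 10.12 for Prps1 (others 9.96 to 10.00), and library 5 read 8.16 for Hprt (others 8.95 to 9.09) and 8.95 for Mthfd2 (others 9.21 to 9.25). KO library 2 of set 1 read 9.45 for Prps1 (others 9.90 to 9.98) and 8.32 for Hprt (others at or above 8.94). KO library 1 of set 2 read 7.63 for Umps (others 7.76 to 7.78) and 9.39 for Uck2 (others 10.00 to 10.10), and without it the Uck2 difference was -0.33 (limma adjusted p = 0.0114). In set 3, KO library 1 read 6.44 for Umps (others 6.77 to 6.81) and wild-type library 1 read 7.69 for Mthfd2 (others 8.62 to 8.69). Several values of the Dhodh group are exactly equal, which makes its range small.

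The Mycl KO effect on Cad differed between set 2 and set 1 by 0.38 in a direct test of the difference (limma adjusted p = 0.0399), and the call was lost without any of 12 single libraries.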

How the results depend on the processing

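No named member changed direction while past the threshold. Over the 5 members named in each comparison and all alternatives, 750 values kept their direction and side of the threshold, 19 came to pass the test and 31 no longer passed it. The count of members called stayed close to the reported count in 129 alternatives and moved in 31. The median difference moved by at least the SD of the array medians within groups in 5 alternatives and by less in 155. With all 8 groups in 1 fit the members called were 0 at steady state over both sets, 0 in set 2, 9 in set 3, 1 in the Mxd1 set and 0 in set 2 minus set 1. With array weights they were 1 in set 1 and 2 in set 2 minus set 1, where quantile normalization gave 0. The median difference of set 3 minus set 2 was -0.06 with array weights. In alternatives chosen after seeing the data, leaving out wild-type libraries 1 and 4 of set 3 gave medians of -0.01 in set 3 and 0.01 in set 3 minus set 2, and leaving out KO library 3 as well gave -0.04 in the latter. Leaving out 1 library at a time gave 0 to 0 members called for set 1. The range was 0 to 3 for set 2, 0 to 0 under poly IC (set 3), 0 to 4 in the Mxd1 set, 3 to 3 at steady state over both sets, 0 to 2 in set 2 minus set 1 and 0 to 0 in set 3 minus set 2. The medians ran from -0.18 to -0.10, -0.03 to 0.02, -0.29 to -0.09, 0.04 to 0.22, -0.07 to -0.03, 0.09 to 0.15 and -0.34 to -0.12 in the same order. With the replicate number as a block (replicate block), 0, 3, 0, 0, 3, 0 and 0 members were called in that order, Rrm1 being added in set 2 (0.27) and Cad lost in set 2 minus set 1 (0.39). The labels do not say whether same-numbered libraries belong together. Their deviations correlated between -0.40 and 0.35, and values of both signs cannot settle it. The shares of all genes called in the alternative fits are not given here, so these counts of members are not set against them. The cause of these shifts was not tested. The number of arrays limits the precision.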
